A study of Bos indicus x Bos taurus with 45 samples.

Results

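The miRNAs described here carry the names of the miRNA group at RTL1, largely antisense to that gene, in the imprinted DLK1-DIO3 region. Members were chosen by name alone: every row called miR-493, miR-337, miR-665, miR-431, miR-433, miR-127, miR-432 or miR-136, with any arm, was taken. The names carry the prefix bta-, for Bos taurus, which is left out below except where a miRNA is first described. That gave 12 mature miRNAs from 7 hairpins, out of 603 miRNAs listed in the series. All 12 were listed in each of the 4 tissue tables, and no row carried the name miR-337. Both arms were listed for the hairpins of miR-127, miR-136, miR-432, miR-493 and miR-665, and 1 arm for those of miR-431 and miR-433. A row without an arm in its name, such as miR-127, is the partner of the row that has one, such as miR-127-5p.

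A miRNA is cut from a hairpin RNA, and either strand of the hairpin, called an arm, can be kept as the mature product that represses target messenger RNAs. In mammals the DLK1-DIO3 region makes protein-coding RNAs (DLK1, RTL1, DIO3) from the paternal chromosome and non-coding RNAs, among them 2 large groups of miRNAs, from the maternal one. In mice several miRNAs of the first group, among them miR-127, miR-136, miR-431 and miR-433, are made from the strand opposite Rtl1 and direct cleavage of its message, and mice that lack the antisense RNA have more Rtl1 and a disturbed placenta. Positions and sequences of the cattle miRNAs were not used here. The second group, the cluster from miR-379 to miR-410, lies further along the same maternal RNA. In the RefSeq gene table used here, RTL1 stands between DLK1 and DIO3 on 1 chromosome.

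Small RNA was sequenced from fetuses of a Bos indicus by Bos taurus cross at about day 105 of gestation, in kidney (4 LOS, 4 control), liver (4 LOS, 4 ART, 5 control), skeletal muscle (4 LOS, 4 control) and tongue (7 LOS, 9 control). LOS stands for large offspring syndrome, in which ruminant fetuses overgrow, and these fetuses came from assisted reproduction. ART fetuses also came from assisted reproduction and had a normal phenotype. Control fetuses came from artificial insemination, so LOS and control differ in the way of conception as well as in growth. Sex was labelled in tongue, with 4 female and 3 male LOS and 5 female and 4 male control fetuses.

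Kidney libraries held 6132982 to 9170756 listed reads and liver libraries 3379816 to 4976770. Muscle libraries held 4744968 to 6456252 and tongue libraries 9357833 to 13822348. Across the libraries of a tissue, no count of the 12 miRNAs was below 22 (kidney), 35 (liver), 90 (muscle) or 176 (tongue). The labels of liver, muscle and tongue were set against defining miRNAs. Hepatocyte miR-122 averaged 19093 CPM in liver, 8.38 in kidney and 12.47 in muscle and was not listed in tongue. Skeletal muscle miR-133a averaged 14701 CPM in muscle and 15764 in tongue, against 34.5 in kidney and 82.3 in liver. It does not tell muscle from tongue. The kidney label had no such check. Rows of miR-192, miR-194 and miR-215, of kidney and gut epithelium, summed to 22818 CPM on average in control kidneys. They summed to 71001 in control livers, 1313 in control muscles and 2818 in control tongues. The control tongues ranged widely, from 1640 to 8136 CPM, and the LOS tongues from 1553 to 2009 CPM. CPM here means the reads of a miRNA scaled to a common total of listed reads per library (counts per 1e6), with no further scaling. These are whole pieces of tissue, so more cells of a type that makes a miRNA and more of it per cell cannot be told apart.

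The 12 miRNAs together took a small part of the reads in kidney and liver and a large part in muscle and tongue. Their summed share of listed reads was 2.86% ± 0.279 in LOS and 3.04% ± 0.238 in control kidneys (SD, n = 4 each). In liver it was 3.02% ± 0.171 in LOS and 3.18% ± 0.0795 in ART (SD, n = 4 each) and 3.16% ± 0.166 in control fetuses (SD, n = 5). In muscle the summed share was 12.55% ± 0.727 in LOS and 12.7% ± 1.32 in control fetuses (SD, n = 4 each). In tongue the share was 15.2% ± 1.21 in LOS (SD, n = 7) and 15.7% ± 0.671 in control fetuses (SD, n = 9). The large shares come from 1 miRNA. bta-miR-127, which in human cancer cells is known to repress BCL6, made up 84.1% ± 1.45 of the reads of the 12 in muscle (SD, n = 8) and 85.6% ± 0.735 in tongue (SD, n = 16). It made up 81.6% ± 1.36 in kidney (SD, n = 8) and 29.7% ± 2.37 in liver (SD, n = 13), where miR-136-3p held 27.0% ± 0.887 (SD, n = 13).

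**Figure D1:**
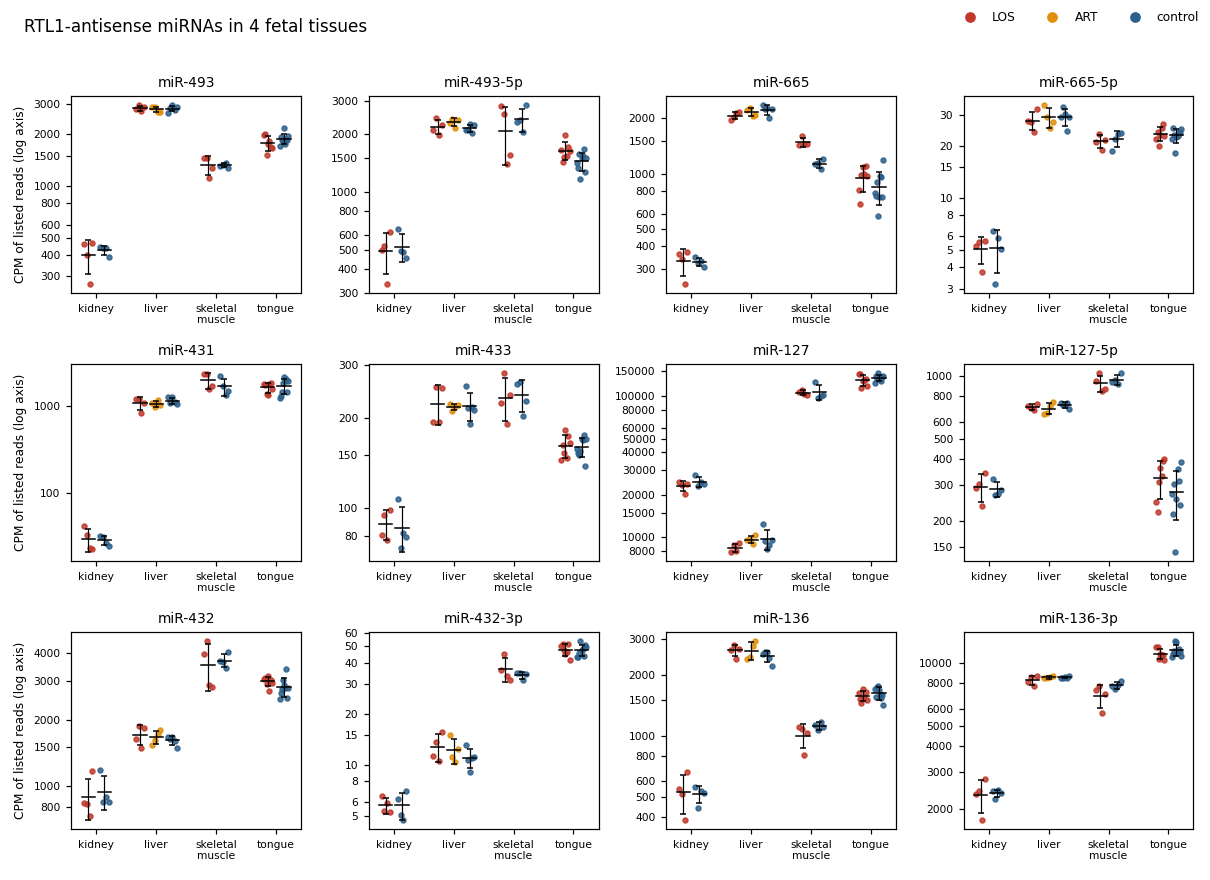
Level of each of the 12 miRNAs in every library, as CPM of listed reads on a log axis, by tissue, with LOS in red, ART in orange and control in blue. Points are libraries and black bars are the mean and SD of a group. Tissues stand further apart than the groups within a tissue, with miR-127 highest in tongue and muscle and miR-431 near 30 CPM in kidney.

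miR-127 had the highest mean of all listed miRNAs over the 8 muscle and over the 16 tongue libraries. It averaged 106247 ± 8899 CPM in muscle (SD, n = 8) and 132712 ± 8808 CPM in tongue (SD, n = 16), where it ranked 1 of 439 and 1 of 460. In the 4 control muscles alone it averaged 106601 CPM, beside 106786 CPM for miR-381 of the second group. In kidney it averaged 24030 ± 2006 CPM (SD, n = 8, rank 8 of 436) and in liver 9311 ± 1165 CPM (SD, n = 13, rank 24 of 563). Libraries ranged from 7940 to 12418 CPM in liver, 20426 to 27642 in kidney, 97602 to 125684 in muscle and 114385 to 145807 in tongue, so neighbouring tissues in this order overlapped between muscle and tongue alone.

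bta-miR-431, known in mice for a part in muscle regeneration, had the widest span across tissues. Its kidney libraries held 22.8 to 41.9 CPM, while those of liver held 823 to 1260, those of tongue 1226 to 2139 and those of muscle 1353 to 2332. The mean was 29.7 ± 6.43 CPM in kidney (SD, n = 8), 1101 ± 122 in liver (SD, n = 13), 1670 ± 286 in tongue (SD, n = 16) and 1830 ± 391 in muscle (SD, n = 8). Kidney stood clear of the others, and liver, tongue and muscle overlapped in that order. bta-miR-433, which like miR-431 has 1 listed arm, spanned far less, from 73.4 to 107 CPM in kidney and from 138 to 182 in tongue, with liver (191 to 256) and muscle (190 to 283) overlapping each other.

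Over all libraries of a tissue, every member but miR-127 had its lowest mean in kidney. In control fetuses 1 to 4, miR-127-5p was lower still in tongue, at 234 CPM, against 285 CPM in kidney. Over all 9 control tongues it averaged 276 CPM. The remaining ones split by where they were highest. bta-miR-493 averaged 2824 ± 95.2 CPM in liver (SD, n = 13), against 413 ± 63.6 in kidney, 1328 ± 109 in muscle (SD, n = 8 each) and 1841 ± 159 in tongue (SD, n = 16), and its libraries overlapped between none of these tissues. bta-miR-665 averaged 2161 ± 127.4 CPM in liver (SD, n = 13), 1308 ± 198 in muscle (SD, n = 8), 890 ± 167 in tongue (SD, n = 16) and 331 ± 38.8 in kidney (SD, n = 8). bta-miR-432 ran the other way, with 3633 ± 591 CPM in muscle (SD, n = 8) and 1654 ± 119 in liver (SD, n = 13). The 2 scarcest arms were miR-432-3p, at 5.77 ± 0.798 CPM in kidney and 35.2 ± 4.26 in muscle (SD, n = 8 each), and miR-665-5p, at 5.10 ± 1.09 CPM in kidney (SD, n = 8).

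Tissues were tested in pairs over control fetuses 1 to 4 (16 libraries) with edgeR's quasi-likelihood test, on the 374 miRNAs that the 4 tables share, with the fetus as a block. The tongues of control 1 to 4 and LOS 1 to 4 are all labelled female. If a number is 1 fetus across tissues, these tests and the later ones over numbers 1 to 4 used females alone. Most miRNAs of any kind differ between tissues, so the counts are read against that. Between liver and kidney, 9 of the 12 were higher in liver, 1 was lower and 2 did not pass, while 48.1% of all miRNAs were called higher and 38.5% lower. In muscle against kidney all 12 were higher and 0 lower, where 41.4% and 35.8% of all miRNAs were, and in tongue against kidney 11 were higher and 1 lower, against 44.1% and 36.1% of all. The lower one was miR-127-5p, with a log2 difference of -0.75 ± 0.152 (SE, edgeR adjusted p = 0.000440) in tongue against kidney, and of -0.30 without scaling factors (adjusted p = 0.109). Liver against muscle gave 3 higher and 8 lower (45.5% and 39.8% of all), tongue against muscle 2 higher and 6 lower (33.7% and 31% of all), and liver against tongue 5 of each (46% and 39.3% of all). Arms of 1 hairpin are not independent. Each tissue has its own count table, and the processing notes of tongue name a tool (cutadapt) that those of the other tissues do not, so tissue and processing cannot be told apart in any of these differences, the arm ratios included.

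These counts depend in part on the scaling, more so in the pairs without kidney. The TMM factors, which assume that most miRNAs are alike between libraries, averaged 1.41 in liver, 1.07 in tongue, 0.839 in muscle and 0.790 in kidney. Relative to unscaled values they moved the median difference of all miRNAs by -0.83 in liver against kidney, -0.09 in muscle against kidney, -0.44 in tongue against kidney, -0.75 in liver against muscle, -0.36 in tongue against muscle and -0.39 in liver against tongue (log2). Without them the calls over all miRNAs moved towards higher too. In liver against kidney the 12 then divided into 11 higher and 1 lower, where 65% of all miRNAs were higher and 24.1% lower. Muscle against kidney gave 12 and 0 (44.1% and 29.9% of all), and tongue against kidney 11 and 0 (58.8% and 22.7%). Liver against muscle became 5 higher and 4 lower (61.2% and 27% of all), tongue against muscle 5 and 5 (57.5% and 19.5%), and liver against tongue 7 and 4 (57.5% and 30.7%).

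Among single miRNAs, miR-431 differed from kidney by 4.55 ± 0.194 in liver, 5.77 ± 0.205 in muscle and 5.22 ± 0.200 in tongue (log2 ± SE, edgeR adjusted p = 4.23e-11, 8.74e-12 and 2.82e-11). Of the 374 miRNAs it stood 5th, 3rd and 2nd in size among those higher than kidney. miR-127 was lower in liver by log2 values of -4.18 ± 0.131 against both muscle and tongue and -2.17 ± 0.120 against kidney (edgeR adjusted p = 1.55e-12, 1.72e-12 and 4.74e-10). It was higher than kidney by 2.01 ± 0.120 in muscle and in tongue (edgeR adjusted p = 1.79e-09 and 1.63e-09). Tongue against muscle gave a log2 difference of -0.00 ± 0.115 for miR-127 (edgeR adjusted p = 0.991), and 0.36 without scaling factors (adjusted p = 0.00580). The other arm, miR-127-5p, was lower in tongue than in muscle by -2.42 ± 0.159 (log2 ± SE, edgeR adjusted p = 2.69e-08). In liver against kidney, miR-432 differed by 0.02 ± 0.0918 (edgeR adjusted p = 0.875), and by 0.85 without scaling factors (adjusted p = 3.33e-06).

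The 2 arms of a hairpin are counted in the same library, so their ratio needs neither depth nor scaling. For miR-127 this ratio separated the tissues with no overlap. There were 12.97 reads of miR-127 per read of miR-127-5p in liver (geometric mean, range 11.1 to 16.6, n = 13), 83.4 in kidney (69.5 to 91.5, n = 8), 112.5 in muscle (98.5 to 134.2, n = 8) and 461 in tongue (295 to 1026, n = 16). Tongue and muscle stood apart in this ratio, while the level of miR-127 itself did not pass the test between them after scaling.

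In the 8 fetuses numbered 1 to 4 in LOS and control, each of the 6 tissue pairs differed the same way in 8 of 8 fetuses for miR-127, with an exact two-sided sign-flip permutation p of 0.00781, the smallest that 8 pairs can give, and an adjusted p of 0.0102 over 30 tests. The mean log2 difference was -5.42 in liver against tongue, -3.18 in liver against muscle, -2.74 in liver against kidney, 2.67 in tongue against kidney, 2.24 in tongue against muscle and 0.43 in muscle against kidney. Over the 5 hairpins and 6 pairs, 25 of 30 tests passed an adjusted p of 0.05. These tests were chosen after the data had been seen.

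The other hairpins changed their balance less. There were 3.30 reads of miR-136-3p per read of miR-136 in liver (2.96 to 3.90, n = 13) and 4.50 in kidney (4.17 to 5.00, n = 8). Muscle had 6.95 (6.66 to 7.38, n = 8) and tongue 7.07 (6.25 to 7.81, n = 16), and these 2 tissues overlapped. For miR-432 tongue and muscle had the lower ratios, with 60.8 reads of miR-432 per read of miR-432-3p in tongue, 103 in muscle, 140.2 in liver and 157 in kidney (geometric means). The arms of miR-493 were near balance in each tissue, at 1.28 reads of miR-493 per read of miR-493-5p in liver, 1.20 in tongue, 0.815 in kidney and 0.608 in muscle. For miR-665 there were 75.5 reads per read of miR-665-5p in liver, 65.9 in kidney, 60.5 in muscle and 38.1 in tongue.

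**Figure D2:**
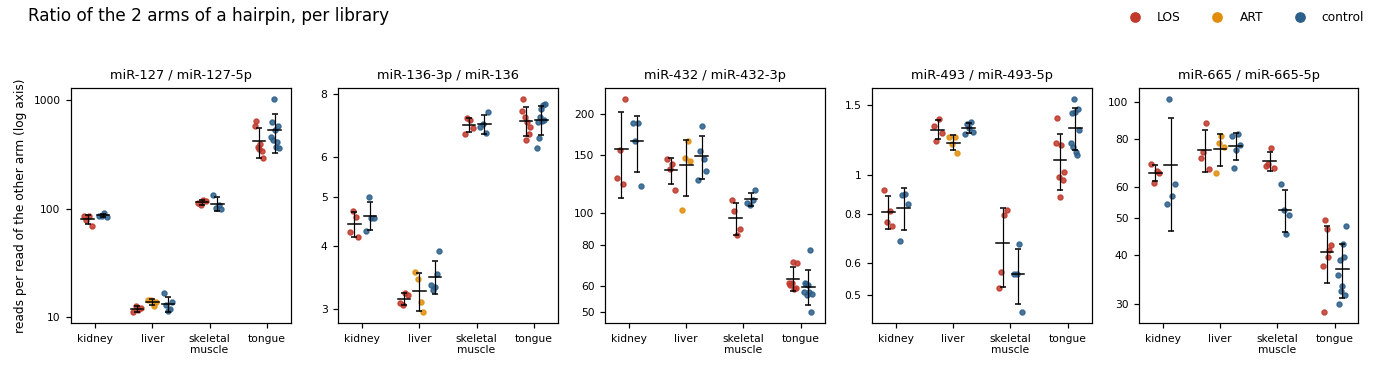
Ratio of the 2 arms of each hairpin that has both listed, as reads of the first arm per read of the other on a log axis, by tissue, with LOS in red, ART in orange and control in blue. Points are libraries and black bars are the mean and SD of a group. The miR-127 ratio runs from 11.1 in the lowest liver library to 1026 in tongue control 4, and the tissues do not overlap.

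LOS and control fetuses were compared within each tissue, to ask whether the overgrown fetuses differ in these miRNAs. No miRNA of the 12 passed edgeR's quasi-likelihood test at an adjusted p of 0.05 in any tissue, and neither did any in ART against control or LOS against ART. The same test called 0% of all listed miRNAs in kidney, muscle and tongue, 1.24% in liver LOS against control, 0% in ART against control and 2.66% in LOS against ART. The median log2 difference of the 12 lay between -0.02 and 0.01 over these 6 comparisons, and that of all listed miRNAs between -0.01 and 0.01. At an unadjusted p under 0.05 there were 0 of the 12 in kidney (7.57% of all listed miRNAs), 2 in liver LOS against control (14% of all), 1 in ART against control (8.17%), 1 in LOS against ART (15.5%), 1 in muscle (13.2%) and 1 in tongue (5.43%).

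**Figure D3:**
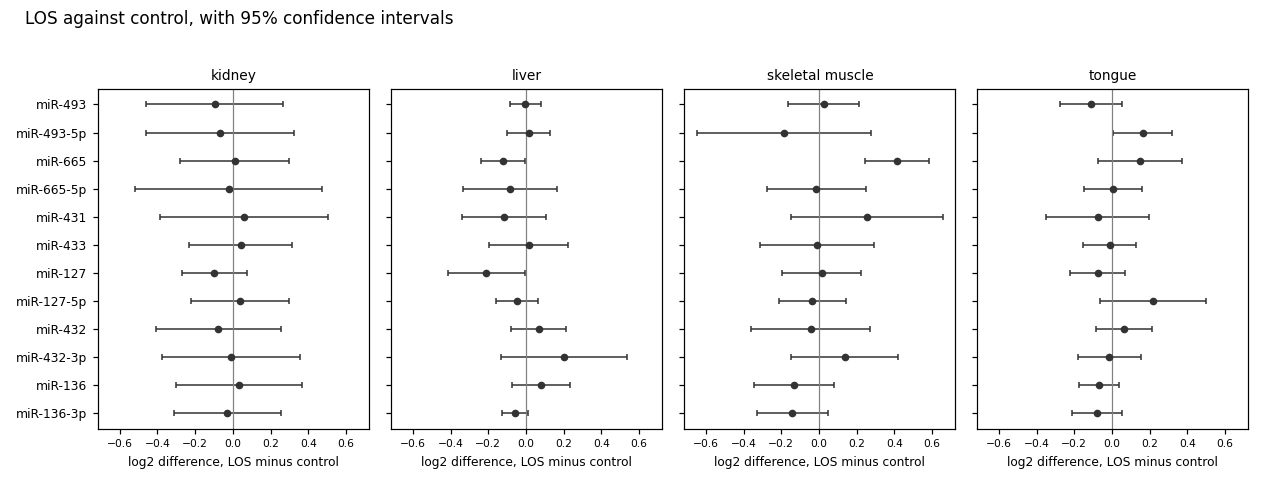
Log2 difference of LOS minus control for each of the 12 miRNAs in 4 tissues, from edgeR's quasi-likelihood fit, as points with 95% confidence intervals. Most intervals span 0, and miR-665 in skeletal muscle stands furthest from it, at 0.41.

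miR-665 in skeletal muscle came closest to a call. Its levels were 1439, 1603, 1441 and 1449 CPM in LOS muscles, against 1133, 1145, 1056 and 1199 CPM in control muscles. Each of the 4 LOS libraries lay above each of the 4 control libraries, as was the case in either direction for 7.06% of all listed miRNAs. The log2 difference was 0.41 ± 0.0764 (SE, 95% confidence interval 0.24 to 0.59), a fold of 1.33, with an unadjusted p of 0.000359 and an edgeR adjusted p of 0.0526. The other arm of the same hairpin, miR-665-5p, had 21.1, 23.2, 19.0 and 21.4 CPM in LOS muscles and 18.5, 21.8, 23.3 and 23.6 CPM in control muscles. These overlap, and their log2 difference was -0.01 ± 0.117 (edgeR adjusted p = 0.984).

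The adjusted p of miR-665 in muscle fell on either side of the threshold as the method changed. It was 0.0488 with RLE size factors, 0.0377 with miRNAs under a mean of 10 CPM left out and 5.25e-07 in DESeq2, and at most 0.175 in the other fits. Leaving out 1 library at a time gave 0.0540 to 0.219, with log2 differences from 0.37 to 0.46. Beside this result, in muscle, the 2 endothelial rows summed to 9608 to 12516 CPM in LOS and 8408 to 9771 CPM in control muscles, and the 5 mesenchyme rows (miR-199 and miR-214) to 13530 to 16329 CPM in LOS and 15837 to 17603 CPM in control muscles. Their part in the result was not tested.

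**Figure D4:**
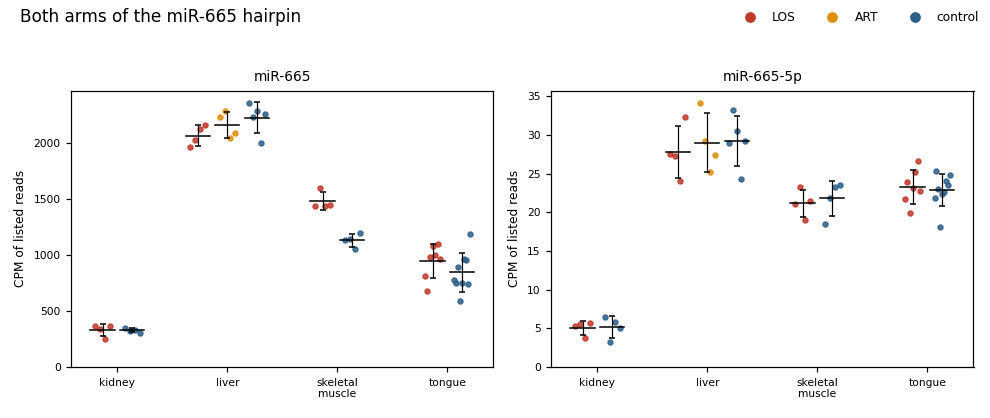
Level of miR-665 and of its partner arm miR-665-5p in every library, as CPM of listed reads on an axis from 0, with LOS in red, ART in orange and control in blue. Points are libraries and black bars are the mean and SD of a group. In muscle the 4 LOS libraries of miR-665 lie above the 4 control libraries, and those of miR-665-5p overlap.

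The remaining muscle values were more scattered among LOS fetuses than among controls for several miRNAs. With the SD as a percentage of the mean, it was the other way for miR-127 (4.09% in LOS, 12.1% in control). The same held for miR-665-5p (8.29% and 10.6%) and, by a little, for miR-431 (20.2% and 21.8%). miR-493-5p had 2810, 2543, 1411 and 1556 CPM in LOS muscles and 2321, 2368, 2049 and 2843 CPM in control muscles. LOS 3 and LOS 4 were below every control, LOS 1 and LOS 2 were above 3 of the 4 controls, and the log2 difference was -0.19 ± 0.205 (edgeR adjusted p = 0.675), from -0.34 without LOS 1 to -0.06 without LOS 3. miR-431 had 2332, 2323, 1576 and 1701 CPM in LOS muscles and 2187, 1676, 1353 and 1489 CPM in control muscles. Here too LOS 1 and LOS 2 were the higher pair, and the groups overlapped, with a log2 difference of 0.26 ± 0.179 (edgeR adjusted p = 0.514), from 0.16 without control 3 to 0.43 without control 1. miR-136-3p had 7371, 7720, 5713 and 7056 CPM in LOS muscles against 7748, 7450, 7859 and 8145 CPM in control muscles, a log2 difference of -0.14 ± 0.0834 (edgeR adjusted p = 0.456), or -0.07 without LOS 3.

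In muscle, miR-432 had 3986, 4551, 2860 and 2820 CPM in LOS and 3704, 3670.5, 3430 and 4042 CPM in control fetuses. As with miR-493-5p, LOS 3 and LOS 4 were below every control. The arm miR-136 followed its partner, with 1107, 1077, 807 and 1030 CPM in LOS and 1130, 1069.5, 1177 and 1104 CPM in control muscles, LOS 3 being the lowest. miR-433 had 224, 283, 190.1 and 239 CPM in LOS and 260, 264, 202 and 228 CPM in control muscles, again with LOS 3 lowest and with overlap between the groups.

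In liver, miR-127 had a lower mean in LOS than in the other groups, without a call. Its levels were 7940, 8846, 7999 and 9088 CPM in LOS, 9596, 9685, 9058 and 10328 CPM in ART and 12418, 9364, 8221, 8898 and 9607 CPM in control livers. LOS overlapped both other groups, and control 1 stood above all. The log2 difference was -0.21 ± 0.0952 in LOS against control (unadjusted p = 0.0462, edgeR adjusted p = 0.352) and -0.22 ± 0.1001 in LOS against ART (unadjusted p = 0.0462, edgeR adjusted p = 0.310). Without control 1 the difference of LOS against control was -0.12. These 2 comparisons share the LOS libraries, and LOS and ART against control share the control libraries.

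miR-665 had its difference on the other side of 0 in liver, also without a call. It had 1963, 2026, 2127 and 2160 CPM in LOS, 2234, 2288, 2050 and 2090 CPM in ART and 2361, 2236, 2293, 2004 and 2259 CPM in control livers. LOS 1 lay below all 5 controls and the other 3 LOS livers above control 4 alone, with a log2 difference of -0.12 ± 0.0534 (unadjusted p = 0.0414, edgeR adjusted p = 0.348). In ART against control, miR-493-5p had 2301, 2413, 2168 and 2383 CPM in ART livers and 2100, 2115, 2255, 2044 and 2237 CPM in control livers, a log2 difference of 0.12 ± 0.0528 (unadjusted p = 0.0364, edgeR adjusted p = 0.563). The log2 differences of the 12 ranged from -0.21 to 0.20 in LOS against control, from -0.10 to 0.17 in ART against control and from -0.22 to 0.03 in LOS against ART. The 0.20 and 0.17 belong to miR-432-3p, which gave 0.07 without LOS 4 and 0.05 without ART 1.

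In kidney the log2 differences of the 12 ran from -0.10 (miR-127) to 0.06 (miR-431, 95% confidence interval -0.39 to 0.50), with edgeR adjusted p from 0.856 to 0.988. miR-127 had 24855, 23667, 20426 and 23894 CPM in LOS kidneys and 27642, 23120, 24713 and 23926 CPM in control kidneys, with LOS 3 lowest and control 1 highest, and the difference was -0.03 without LOS 3. The 5 mesenchyme rows summed to 9404 to 10699 CPM in LOS and 10731 to 12469 CPM in control kidneys, without overlap, and their part in these values was not tested.

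In tongue, fitted with a term for sex, the widest difference was in miR-127-5p. It had a lowest, median and highest level of 222, 332 and 399.9 CPM in LOS tongues and 142, 271 and 386 CPM in control tongues, with a log2 difference of 0.22 ± 0.134 (edgeR adjusted p = 0.915). miR-493-5p had 1444, 1631 and 1995 CPM in LOS tongues and 1177, 1509 and 1675 CPM in control tongues (lowest, median and highest), with a log2 difference of 0.16 ± 0.0739 (unadjusted p = 0.0408, edgeR adjusted p = 0.843). The groups overlapped in both. miR-493, the partner arm, had a log2 difference of -0.11 ± 0.0772 and miR-665 one of 0.15 ± 0.105 (edgeR adjusted p = 0.915 each). The first was -0.06 without LOS 3 and the second 0.09 without LOS 4.

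Between male and female tongues, 2 of the 12 had an unadjusted p under 0.05 and none passed the adjusted test, where 13.5% and 0% of all listed miRNAs did. Males were higher by 0.43 ± 0.133 in miR-127-5p and by 0.29 ± 0.105 in miR-665 (log2 ± SE, unadjusted p = 0.00534 and 0.0137, edgeR adjusted p = 0.313 each). miR-665-5p differed by 0.13 ± 0.0728 (edgeR adjusted p = 0.4995).

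Whether the LOS difference itself differed between tissues was tested over 32 libraries (numbers 1 to 4 of LOS and control) with the fetus as a block. Of the 374 shared miRNAs 3 were called (0.802%), and 0 of the 12. miR-665 had the lowest p among the 12, at 0.0417 unadjusted and 0.306 adjusted in edgeR's quasi-likelihood F test over the 4 tissues. It was the only 1 of the 12 with an unadjusted p under 0.05 in that test, where 57 of the 374 shared miRNAs had one.

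The arm ratios gave no call between LOS and control either. Their permutation tests took no account of sex, also in tongue. For miR-127 the log2 ratio averaged 8.68 ± 0.418 in LOS tongues (SD, n = 7) and 8.98 ± 0.472 in control tongues (SD, n = 9), and the exact two-sided permutation p was 0.202. The difference was -0.30, and -0.18 without control 4, whose ratio was the highest. In liver it averaged 3.57 ± 0.0833 in LOS and 3.79 ± 0.0991 in ART (SD, n = 4 each, exact permutation p = 0.0571), the lowest p of the 6 comparisons, with adjusted p from 0.343 to 0.629. The ratio of miR-665 to miR-665-5p in muscle averaged 6.13 ± 0.0782 in LOS and 5.71 ± 0.177 in control fetuses on the log2 scale (SD, n = 4 each), with an exact permutation p of 0.0286, the smallest that 4 against 4 can give. Adjusted over the 24 tests of the 4 other hairpins, added after the data had been seen, it was 0.171. 3 further tests of that family had an unadjusted exact p under 0.05 and an adjusted p of 0.153: miR-493 in LOS against control tongues (log2 difference -0.27), miR-493 in ART against control livers (-0.13) and miR-136 in LOS against control livers (-0.14).

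Some fetuses were low or high in many of the 12 at once. The libraries numbered LOS 3, taken as 1 fetus, had the lowest level of the tissue in 8 of the 12 miRNAs for kidney, 5 for liver, 6 for muscle and 2 for tongue. The median deviation of their 12 log2 values from the tissue mean came to -0.36 (kidney), -0.16 (liver), -0.21 (muscle) and -0.09 (tongue). In tongue, control 1, control 2 and control 8 also lay at -0.09, so LOS 3 did not stand apart there in the 12. Low values in LOS 3 were not confined to the 12. The cluster from miR-379 to miR-410 also had its smallest share of listed reads in LOS 3 in every tissue. That share was 4.05% (kidney), 15.2% (liver), 21.6% (muscle) and 18.3% (tongue). The next lowest libraries held 5.05%, 15.7%, 25.6% and 20.6%, in the same order. No such count over all listed miRNAs is given here. In kidney, LOS 4 was the highest library in 5 of the 12 and control 1 in a further 5. In tongue, control 4 was the lowest in 4 and the highest in 4, with 142 CPM of miR-127-5p and 145807 CPM of miR-127. The spread between libraries, as the median coefficient of variation over all libraries of a tissue with the groups pooled, was 14.6% for the 12 and 14.1% for all listed miRNAs in kidney, 7.48% and 14.3% in liver, 11.3% and 15.3% in muscle, and 8.498% and 14.4% in tongue. The 2 sets were not matched for level, and listed counts went down to 3 in liver and 8 in tongue.

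**Figure D5:**
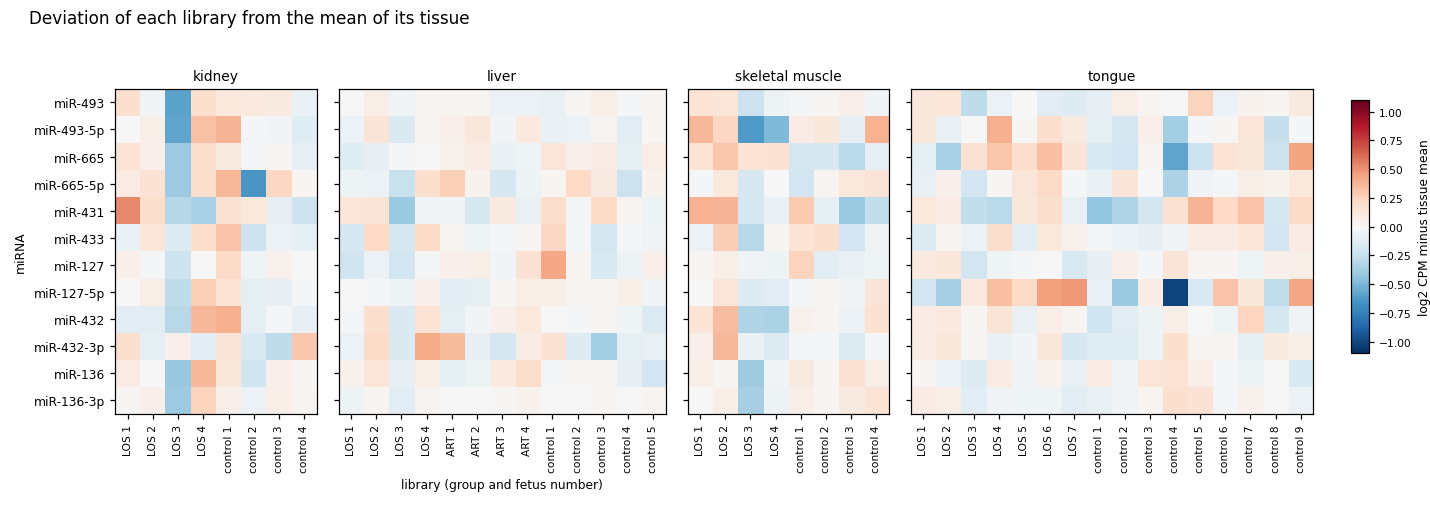
Deviation of the log2 CPM of each of the 12 miRNAs from the mean of its tissue, in every library, with LOS columns left of ART and control columns. Blue is below and red above the tissue mean. LOS 3 is blue in most rows in kidney, liver and muscle, and miR-127-5p in tongue control 4 is the lowest cell, at -1.01.

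The miRNAs whose levels most resembled the mean of the 12 all came from the second DLK1-DIO3 group. Over 45 libraries the mean log2 level of the 12 correlated best with miR-323 (Pearson r = 0.987), miR-299-3p (0.985), miR-154b (0.978), miR-543 (0.976) and miR-411a-3p (0.974). With the mean of each tissue and group taken out, the first 5 were miR-376b (0.831), miR-376c-3p (0.819), miR-543 (0.789), miR-323 (0.780) and miR-758 (0.769). The median r of the 59 shared miRNAs of the miR-379 to miR-410 cluster was 0.808 for levels and 0.577 for deviations, against 0.101 and -0.02 for the 303 other miRNAs. The 12 themselves ranged from 0.361 (miR-127) to 0.993 (miR-431) against their own mean, which includes them. These values describe the libraries, which share tissue, depth and scaling.

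Of that cluster, none of the 61 to 73 miRNAs listed per tissue was called in any LOS or ART comparison by edgeR. At an unadjusted p under 0.05 there were 1.64% of the cluster in kidney (7.57% of all listed miRNAs), 5.71% in muscle (13.2% of all) and 5.71% in tongue (5.43%). In liver there were 11% in LOS against control (14% of all), 5.48% in ART against control (8.17%) and 13.7% in LOS against ART (15.5%). In liver against kidney 53 of 59 were called higher and 1 lower, in muscle against kidney 55 and 0, and in tongue against kidney 52 and 2. The pairs without kidney were split, with 27 higher and 24 lower in liver against muscle, 16 and 22 in tongue against muscle, and 25 and 23 in liver against tongue. Without scaling factors these 3 pairs gave 37 and 12, 29 and 13, and 34 and 12, in the same order. The pairs with kidney then gave 57 and 0 (liver), 56 and 0 (muscle) and 55 and 1 (tongue). The shares of all miRNAs in these pairs are those given for the 12. miR-381 had the largest difference in muscle against kidney, with 106786 CPM in muscle and 1786 CPM in kidney of control fetuses (log2 difference 5.82 ± 0.101, edgeR adjusted p = 7.86e-15).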

How the data were processed

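The authors deposited 1 table per tissue of raw read counts, whole numbers without normalization, with a row for each mature miRNA. Per the labels' protocols, TRIzol RNA (2 µg) went into the TruSeq Small RNA kit, with fragments of 140 to 160 bp taken from a gel. Per the submitters' processing notes, Bowtie, the cattle build UMD3.1 and, for tongue, cutadapt 1.18 were used, with no roles named. Neither the counting tool nor a filter is named in these sources. Totals are of listed reads and may not be full depths. miRNA sequences and positions were not used here. RTL1's neighbours come from the RefSeq table of UOA_Brahman_1.

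In R 4.3.3, edgeR 4.0.16 (TMM, quasi-likelihood test) was fitted to each whole table with Benjamini-Hochberg adjustment over all its miRNAs and a call at an adjusted p under 0.05. The 3 liver groups shared 1 fit, and tongue had a term for sex. Alternatives were RLE factors, no factors, totals and factors without DLK1-DIO3 miRNAs, a CPM minimum of 10, DESeq2 1.42.0 and limma-voom (limma 3.58.1). Others were a replicate block over the numbers that both groups hold, and leaving out each library. In fits across tissues, each fetus number was left out in all its tissues at once. Arm ratios were tested by exact two-sided permutation, without a term for sex. Scripts were tested on simulated data. Counts set the precision, for counting error only.

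A group number was taken as 1 fetus across tissues, which the labels do not state. Of 48 pairs of libraries so linked, 33 correlated above 0.1 in their deviations from group means (median r 0.144, range -0.362 to 0.609). Pairs with unlike numbers were not compared, so these values do not show that a number is 1 fetus. Numbers do not pair LOS with control fetuses. Dams and processing days are not given, so the p-values cover only the variation among labelled fetuses. The closest 2 libraries of any group had a chi-square per degree of freedom of 23.9, and none was counted as a duplicate. The members, lists and tests were chosen with earlier results of these data known. All 12 members were named, and of the cluster from miR-379 to miR-410 the called miRNA with the largest difference.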

Additional observations from a re-analysis of the deposited data

Results flagged for a closer look

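In groups of 4 to 10 libraries, the highest or lowest library was set against the others by Dixon's gap test at the 95% level. Over 108 groups of levels 6 stood apart and over 45 groups of arm ratios 4 did, where chance gives about 5% of groups.

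Among levels, miR-665 in muscle LOS 2 reached 1603 CPM, against 1439 to 1449 CPM in the other LOS muscles. miR-127 in muscle control 1 reached 125684 CPM, against 97602 to 102242 CPM in the other controls. In kidney, miR-432 reached 1182 CPM in control 1 (others 839 to 885), and miR-493 was lowest in control 4 at 387 CPM (others 438 to 442). miR-432-3p was lowest in muscle control 3 at 31.4 CPM (others 34.4 to 34.8), and miR-665-5p in tongue control 4 at 18.2 CPM (others 21.9 to 25.3).

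Among arm ratios, tongue control 4 had 1026 reads of miR-127 per read of miR-127-5p, against 360.2 to 636 in the other controls. The ratio of miR-665 to miR-665-5p reached 76.0 in muscle LOS 3 (others 67.6 to 68.9) and 102 in kidney control 2 (others 54.5 to 61.1). The ratio of miR-432 to miR-432-3p reached 77.1 in tongue control 7 (others 49.8 to 61.2).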

How the results depend on the processing

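None of the 12 miRNAs was called between LOS, ART and control under any alternative except miR-665 in muscle, which was the 1 member called with RLE size factors, in DESeq2 and with the mean CPM minimum of 10. The number of all listed miRNAs called moved more. DESeq2 called 3 in kidney, 20 in liver LOS against control, 6 in ART against control, 27 in LOS against ART and 17 in muscle. With a replicate block the 3 liver comparisons gave 0, 1 and 3, though the numbers do not pair fetuses across groups. These fits also kept only the 2 groups compared and the numbers that both hold. Fits of only the 2 groups compared gave 1 in ART against control and 6 in LOS against ART. In muscle, RLE factors and the CPM minimum gave 3 each. Leaving out 1 library gave 0 to 2 in kidney and 0 to 1 in muscle. In the 3 liver comparisons it gave 6 to 12 (LOS against control), 0 to 5 (ART against control) and 5 to 20 (LOS against ART). For the difference between tissues, 1 fetus number was left out in all its tissues at once, which gave 0 to 9. In liver against tongue 10 of the 12 were called, with 8 to 9 when 1 fetus number was left out. Other settings gave 7 to 11. Tongue against muscle gave 8, then 6 to 8 and 8 to 10 in the same order. Liver against muscle gave 11, then 10 to 11 and 9 to 12. Against kidney, liver gave 10 (10 and 10 to 12), muscle 12 (12 and 12) and tongue 12 (12 and 11 to 12). Alternatives were run for the edgeR differences of the 12 and for the miR-127 arm ratio between LOS, ART and control, not for the arm ratios between tissues, those of the other hairpins or miR-381. Among printed differences with alternatives, 4 turned their sign in at least 1. These were miR-665-5p in muscle (0.000258 in DESeq2, -0.0702 to 0.0319 with 1 library left out), miR-431 in kidney (-0.13 without LOS 1, to 0.17 without LOS 3) and miR-432 in liver against kidney (-0.13 with RLE, -0.00333 in LOS fetuses, -0.0410 to 0.10 with 1 fetus number left out). The last was miR-127 in tongue against muscle (0.36 without scaling factors, 0.31 with totals and factors free of DLK1-DIO3 miRNAs, -0.12 to 0.15 with 1 fetus number left out). The cause was not tested. Depth limits miR-665-5p and miR-432-3p in kidney most, where the lowest count was 22.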
